A study of Mus musculus with 13 samples.

Results

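Livers depleted of hepatic stellate cells were compared with livers regrowing 72 h after partial hepatectomy, the surgical removal of part of the organ, over all genes. The comparison holds 7 of the 13 whole-liver libraries of the series: the 4 mouse livers labelled as depleted of hepatic stellate cells (1 male and 3 female) and the 3 labelled as taken 72 h after partial hepatectomy (2 male and 1 female). The other 6 libraries are control livers (3 male and 3 female), which served here as the reference level. In the fit they also enter the common estimate of spread and the sex term, through which they can move the fold changes of the comparison. RNA was extracted from whole liver with TRIzol and sequenced as stranded mRNA libraries. Genotype, strain, age, the agent and interval of the depletion, the extent of the resection and whether control mice were operated on are not given in the sources used here. As background from the published study, which is not among those sources, the stellate cells were removed with T cells directed against them. Whether the T cell transcripts came from such cells was not tested. The labels do not say that each library is a separate animal, and p-values therefore measure the spread between these samples.

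Hepatic stellate cells are the pericytes of the liver sinusoid: they store retinyl esters, lay down matrix and release growth factors that act on hepatocytes and endothelium. After partial hepatectomy the remaining hepatocytes leave quiescence and replicate, under hepatocyte growth factor, epidermal growth factor receptor ligands and interleukin-6, until liver mass is restored. T cells that attack liver cells release interferon-gamma, which switches on antigen presentation, immunity-related GTPases and chemokines that draw in more lymphocytes. The comparison sets these states side by side, and a difference between them can come from a change in either one, so the range of the controls is given beside many of the values.

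Libraries held between 35360991 and 51008737 counts in genes, 37848305 to 51008737 in the depleted and 39633635 to 46228433 in the hepatectomised livers, and 3 counts correspond to 0.0588 to 0.0848 counts per 1000000 counts of a library (CPM). Values below are CPM scaled for composition (TMM), in the order of the replicate numbers, and gene coordinates are those of the deposited table (mm10). Y-linked counts matched the labelled sex, at 4051 to 7741 in males and 0 to 2 in females, except for 73 in depleted liver 4, a female. This liver also kept more stellate transcripts than the other depleted livers, and depleted liver 3 is the only male among them. Along the first principal component of the 7 livers, which carried 63.4% of the variance, depleted livers lay between -75.8 and -51.1 and hepatectomised livers between 68.0 and 116. Of 13831 genes tested with edgeR's quasi-likelihood test with a term for sex, 3236 (23.4%) passed an adjusted p of 0.05: 1837 (13.3%) were higher and 1399 (10.1%) lower in depleted livers. By size, 587 of the higher and 240 of the lower genes differed at least 8-fold. CPM ranges of the groups did not overlap for 4701 genes (34.0%), and the median log2 fold change over all genes was -0.05. The count was 1709 without depleted liver 3, 1263 within female livers and 668 within male livers. Scaling by library size alone moved the median gene to 0.27 and the calls to 3102 higher and 610 lower, so that 83.6% of calls were higher in place of 56.8%.

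Against the control mean, genes higher in depleted livers mostly set the depleted livers apart: for 1599 of the 1837 (87.0%) the control mean lay nearer the hepatectomised mean on the log2 CPM scale. Among the 1399 lower genes, 977 (69.8%) had controls nearer the hepatectomised livers and 422 (30.2%) nearer the depleted ones. The former are transcripts low in depleted livers, as for stellate, pericentral and fatty acid oxidation genes. The latter are transcripts high after hepatectomy, which include all 6 called mitotic genes and all 8 called lower acute phase genes. The other group need not be at control level, and pericentral genes summed below all controls in both groups. The control mean lay above both groups for 433 of the lower genes, between them for 801 and below both for 165. For the higher genes these counts were 33, 1246 and 558.

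**Figure D1:**
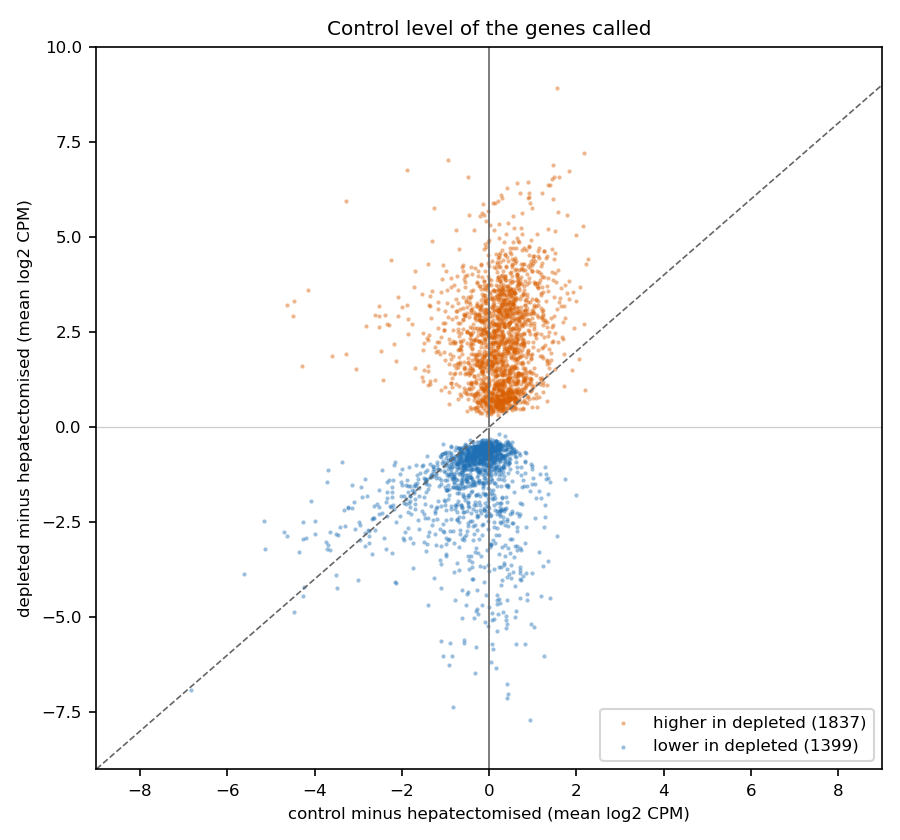
Position of the control livers for the 3236 genes called. Each point is a gene; the x axis is the control mean minus the hepatectomised mean and the y axis the depleted mean minus the hepatectomised mean, both in log2 CPM. Points along the vertical line at 0 have controls level with hepatectomised livers and points along the diagonal have controls level with depleted livers; 1599 of 1837 higher genes and 977 of 1399 lower genes lie nearer the vertical line.

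Stellate transcripts were low in depleted livers and near control level after hepatectomy: the 31 listed markers summed to 385, 359.5, 336 and 530.3 CPM in depleted, 1326, 1027 and 1764 in hepatectomised and 845 to 1627 in control livers. Several defining genes were at or near 0 in 3 of the 4 depleted livers. Colec10 (chr15:54410774-54466358), a collectin secreted by stellate cells, was at 0, 0.0448, 0 and 0.935 CPM in depleted and 35.2, 12.2 and 36.9 in hepatectomised livers, against 18.9 to 79.0 in controls (log2 fold change -7.44 ± 0.96 (SE), edgeR adjusted p = 0.000343). Lrat (chr3:82892579-82903973), which esterifies retinol for storage and defines the cell type, was at 0.193, 0.134, 0.140 and 2.54 against 21.2, 9.68 and 15.3 CPM and 7.77 to 67.4 in controls (log2 fold change -4.97 ± 0.99 (SE), edgeR adjusted p = 0.00393). Decorin (Dcn), a matrix proteoglycan, was at 1.61, 1.86, 0.506 and 23.2 against 200.2, 135 and 231 CPM and 102 to 239 in controls (log2 fold change -5.43 ± 1.04 (SE), edgeR adjusted p = 0.00314). All 3 genes were low in every depleted liver with no overlap between groups, and depleted liver 4 was the highest each time. Among the fits that left out a library, the largest fall of each gene exceeded the value given by more than its SE. The sizes of these 3 falls are therefore uncertain. In whole liver, fewer cells of a type and less RNA per cell cannot be told apart.

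Of 31 stellate markers tested, 25 were lower and none higher in depleted livers, with a median log2 fold change of -4.96, or -4.85 with Bmp10 at its bound. The median was -7.51 to -4.41 when any 1 library was left out, and the larger fall came without depleted liver 4. Among the 12 largest falls of all well-expressed genes were further stellate products: the receptor Vipr1 (-7.41 ± 0.53), the ligands Bmp5 (-6.33 ± 0.98) and Gdf2, also called BMP9 (-5.58 ± 1.01), the matrix protein reelin (Reln, -5.63 ± 0.65), the insulin-like growth factor carrier Igfbp3 (-5.68 ± 1.00) and Adamtsl2 (-5.65 ± 0.90), each as log2 fold change ± SE. The collectin Colec11 (-5.22 ± 1.23) and the matrix proteoglycan lumican (Lum, -5.47 ± 1.26) were among them too. Depleted liver 4 was the highest depleted liver for Bmp5, Gdf2, Igfbp3, Colec11 and Lum. Fits that left out 1 library reached larger falls for each, so the sizes of these falls are uncertain. The receptor Pdgfra was at 0.0643, 0.0672, 0.0175 and 1.89 against 6.08, 10.8 and 13.9 CPM and 3.18 to 9.22 in controls. Bmp10, a ligand of the endothelial receptor ALK1, had no counts in any depleted liver against 0.999, 0.393 and 0.648 CPM after hepatectomy, which makes it at least 10.1-fold lower at a floor of 3 counts per library. Fibrillar collagens did not pass the test: Col1a1 was at 0.0214, 0.112, 0.0175 and 24.3 against 9.88, 52.8 and 106 CPM and 4.98 to 32.3 in controls (edgeR adjusted p = 0.165) and Col3a1 at 0.257, 0.202, 0.0873 and 49.8 against 35.4, 108 and 273 CPM (edgeR adjusted p = 0.105). Depleted livers 1 to 3 were near 0 for both collagens and depleted liver 4 was within the hepatectomised range for both. Without depleted liver 4, 29 markers were lower, Col1a1 among them (edgeR adjusted p = 0.000723). The remaining depleted livers then hold few or no counts of several markers, so fitted fold changes of single stellate markers in that setting depend on the prior count and are not given.

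**Figure D2:**
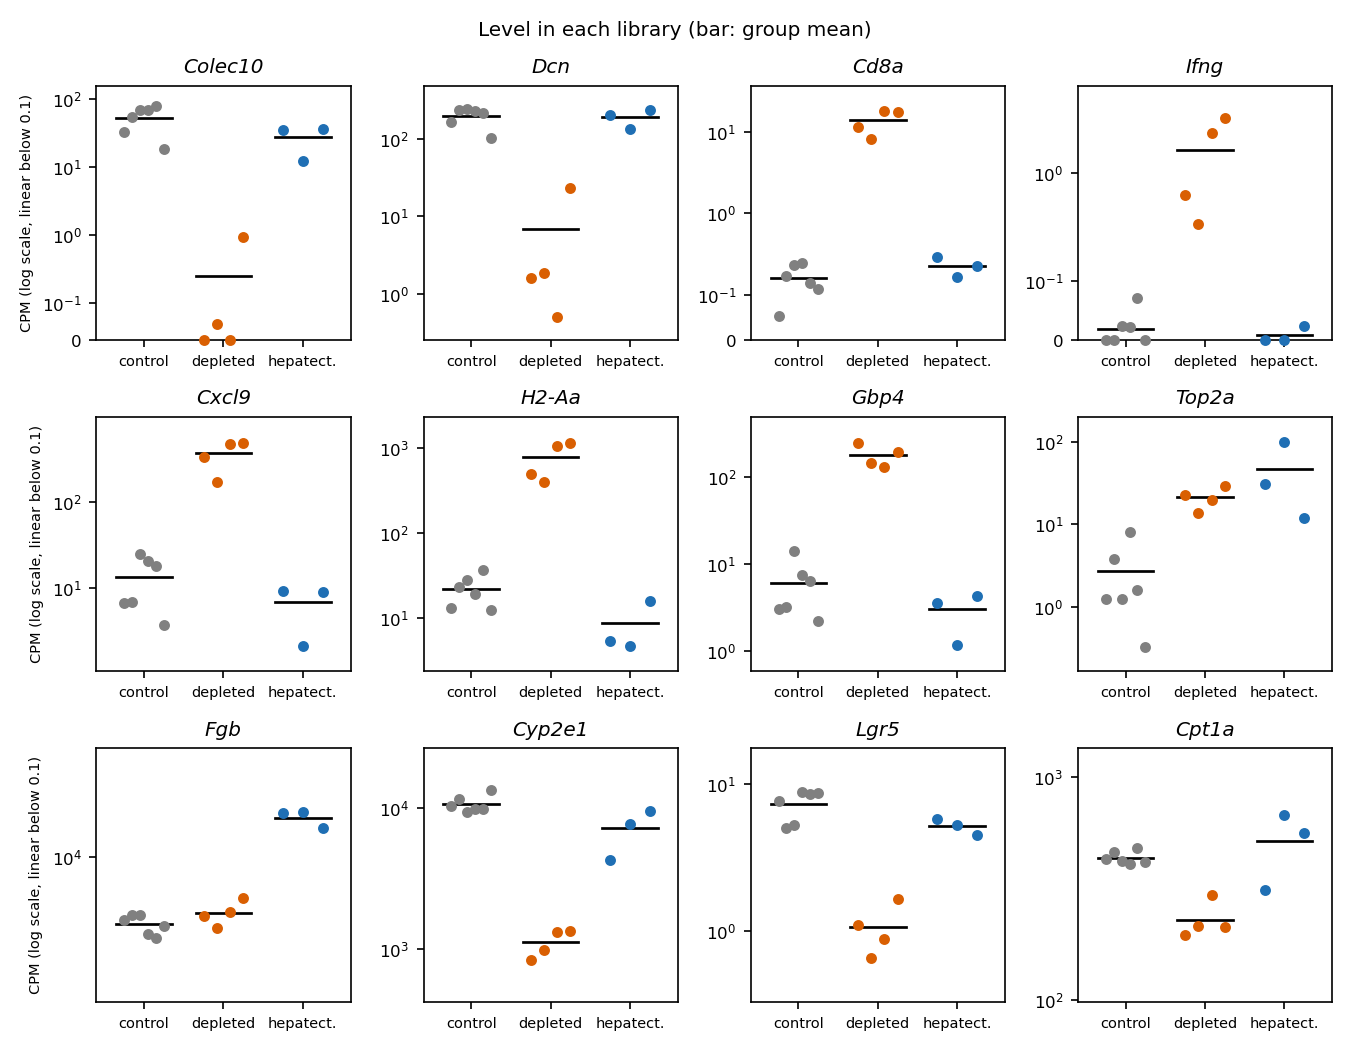
CPM of 12 genes in each library on a log axis that is linear below 0.1, with control (grey, 6), depleted (orange, 4) and hepatectomised (blue, 3) livers and the group mean as a bar. Colec10 and Dcn are lowest in depleted livers, Cd8a, Ifng, Cxcl9, H2-Aa and Gbp4 highest there, Top2a and Fgb are raised over most controls after hepatectomy, and Cyp2e1, Lgr5 and Cpt1a are lowest in depleted livers.

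Other mesenchymal genes were lower as well. Of 12 markers of smooth muscle and portal fibroblasts, 9 were lower and none higher (median -2.87), among them fibulin-1 (Fbln1, -3.17 ± 0.53) and leiomodin (Lmod1, under the 3-count floor in every depleted liver). Their summed level was 6.23, 6.20, 6.44 and 22.03 CPM in depleted, 26.5, 43.1 and 63.4 in hepatectomised and 13.7 to 33.9 in control livers. Smooth muscle actin (Acta2) did not pass, at 0.214, 0.179, 0.384 and 5.68 against 2.06, 7.61 and 7.86 CPM, but was called lower without depleted liver 4 (edgeR adjusted p = 0.00216). Of 27 matrix proteins and remodelling enzymes, 13 were lower, or 48.1% against 10.1% of all genes, and 4 were higher. The higher share (14.8%) is near the 13.3% of all genes called higher and says nothing particular of the list. Lower members included type XIV collagen (Col14a1, -4.41 ± 0.94), the fibril crosslinker Loxl1 (-4.57 ± 0.83) and periostin (Postn, -4.36 ± 0.91). The higher members included the neutrophil collagenase Mmp8, at 35.9, 29.3, 25.2 and 5.12 against 1.03, 2.33 and 1.52 CPM and 0 to 0.198 in controls (log2 fold change 4.10 ± 0.78 (SE), edgeR adjusted p = 0.00298), and the gelatinase Mmp9 (3.77 ± 0.86). Timp1, an inhibitor of such proteases, was at 0.236, 0.224, 0.384 and 2.32 against 3.62, 7.19 and 17.0 CPM and 0 to 0.667 in controls, which puts its difference on the side of the hepatectomised livers (log2 fold change -3.68 ± 1.08 (SE), edgeR adjusted p = 0.0282). The smooth muscle and portal count was 5 without depleted liver 3 and 4 without hepatectomised liver 3. The higher matrix count was 2 without depleted liver 3, hepatectomised liver 2 or hepatectomised liver 3. The lower matrix count was 7, 8 and 5 without depleted liver 1, 2 and 3 and 3 without hepatectomised liver 3, and Timp1 lost its call without any of the same 4 livers.

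Hgf, the main hepatocyte mitogen of mesenchymal origin and a member of the stellate list, was at 5.10, 4.86, 4.28 and 2.32 CPM in depleted and 17.1, 10.9 and 13.6 in hepatectomised livers (log2 fold change -1.92 ± 0.47 (SE), edgeR adjusted p = 0.0113), with controls at 3.87 to 20.5. R-spondin 3 (Rspo3), which strengthens Wnt signalling around the central vein, was at 1.97, 1.05, 1.502 and 1.25 against 7.52, 5.25 and 6.36 CPM and 2.58 to 8.77 in controls (log2 fold change -2.20 ± 0.38 (SE), edgeR adjusted p = 0.00163). Of 7 neurotrophins and receptors tested, 3 were lower and none higher. Neurotrophin-3 (Ntf3), the factor named in the study's title, was at 0.771, 0.381, 0.0524 and 0.156 against 2.41, 2.58 and 3.94 CPM (log2 fold change -3.46 ± 0.68 (SE), edgeR adjusted p = 0.00335). Controls held 0.240 to 0.661 CPM of Ntf3, so that its level after hepatectomy lay above all 6 controls while depleted livers overlapped them. The receptor Ngfr, a stellate marker (-5.31 ± 0.97), was lower with no overlap. Ntrk2, a neurotrophin receptor, stood at 0.0857, 0.0448, 0.367 and 0.223 against 0.294, 1.151 and 1.67 CPM and did not pass (log2 fold change -2.66 ± 1.04 (SE), edgeR adjusted p = 0.0854). It was called without depleted liver 3 (-5.03, edgeR adjusted p = 0.00769). A separate list of mitogens and angiocrine signals does not hold Hgf, which is counted with the stellate genes. In that list 1 of 18 was lower, Rspo3, and 1 higher, the cytokine Tgfb1 (1.82 ± 0.45, a call lost without depleted liver 3 or hepatectomised liver 3). Leaving out 1 library gave 1 to 3 lower and 0 to 2 higher genes. Both shares are below those of all genes tested. The receptors Met (-0.43 ± 0.24) and Egfr (-0.40 ± 0.44) did not pass.

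T cell transcripts were high in depleted livers and near control level after hepatectomy. Cd8a (chr6:71373427-71379171), the coreceptor of cytotoxic T cells, was at 11.4, 8.20, 18.04 and 17.2 CPM in depleted and 0.294, 0.168 and 0.224 in hepatectomised livers (log2 fold change 5.87 ± 0.49 (SE), edgeR adjusted p = 3.08e-05). Cd3e, of the T cell receptor complex, was at 4.95, 5.26, 10.97 and 14.6 against 0.147, 0.0561 and 0.449 CPM and 0.173 to 0.702 in controls (log2 fold change 5.25 ± 0.72 (SE), edgeR adjusted p = 0.000403). Controls held 0.0536 to 0.247 CPM of Cd8a, as little as after hepatectomy. Of 17 receptor complex and coreceptor genes 15 were higher and none lower, with a median of 4.71, and Cd4 differed least among those named (2.11 ± 0.43). The members summed to 72.2, 71.2, 148 and 165 CPM in depleted and 18.02, 14.6 and 16.5 in hepatectomised livers, against 9.46 to 15.8 in controls, with depleted livers 3 and 4 the highest and hepatectomised livers 1 and 3 just above the control range.

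Effector and inhibitory receptor genes went with them. All 19 cytotoxic effectors tested of 19 were higher (median 5.01). Granzyme B (Gzmb), a killing protease, was at 21.1, 16.9, 60.6 and 30.2 against 0.705, 0.0281 and 0.574 CPM and 0.390 to 0.889 in controls (log2 fold change 6.21 ± 0.75 (SE), edgeR adjusted p = 0.000219). Interferon-gamma (Ifng) was at 0.621, 0.336, 2.34 and 3.23 against 0, 0 and 0.0249 CPM and 0 to 0.0702 in controls (edgeR adjusted p = 0.00242), with every hepatectomised liver under the 3-count floor, and its call was lost without depleted liver 3 (adjusted p = 0.111). Fasl, the ligand of the death receptor Fas, had 1.39, 0.694, 1.52 and 1.83 CPM in depleted livers and counts in 1 of the 3 hepatectomised ones. Checkpoint genes, which mark activated and exhausted T cells, were higher for 12 of 13, a count of 7 without depleted liver 3. The receptor PD-1 (Pdcd1) was at 1.93, 1.88, 6.41 and 9.55 against 0, 0 and 0.0748 CPM and 0 to 0.0472 in controls, and its ligand PD-L1 (Cd274) at 151, 70.1, 90.7 and 66.2 against 2.09, 0.870 and 0.973 CPM and 1.14 to 4.84 in controls (log2 fold change 5.96 ± 0.57 (SE), edgeR adjusted p = 7.33e-05). A second ligand, Pdcd1lg2, had no counts after hepatectomy and 0.942, 0.694, 3.004 and 6.37 CPM in depleted livers, at least 31.2-fold higher at the floor of 3 counts per library, though its call was lost without depleted liver 3. Tigit was at 1.95, 3.02, 7.19 and 5.21 against 0, 0.0561 and 0.0499 CPM, and Lag3 at 4.58, 3.90, 10.3 and 13.4 against 1.65, 1.12 and 0.399 CPM.

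Transcripts of other lymphocytes and of antigen-presenting cells were higher too. Natural killer receptors were higher for 9 of 12 (median 3.06) and for 5 without depleted liver 3. Klrc1 (3.79 ± 0.75) and Cd7 (3.82 ± 0.45) were among them, and both are also carried by T cells. B cell and plasma cell markers were higher for all 11 of 11: the B cell factor Pax5 was at 4.52, 3.90, 2.99 and 4.94 against 0.176, 0.0561 and 0.249 CPM, and Jchain, which joins secreted antibody, at 21.7, 18.8, 34.1 and 11.9 against 0.647, 0.449 and 1.12 CPM and 0.873 to 1.71 in controls (log2 fold change 4.89 ± 0.43 (SE), edgeR adjusted p = 3.65e-05). Dendritic cell genes were higher for 11 of 14. Among them were 2 genes of cross-presenting cells, Xcr1 at 5.997, 4.05, 12.8 and 11.8 against 0.118, 0.0561 and 0.175 CPM and Clec9a at 15.8, 8.65, 34.0 and 34.6 against 0.676, 0.646 and 1.55 CPM (log2 fold change 4.58 ± 0.54 (SE), edgeR adjusted p = 0.000188). Siglech, of plasmacytoid dendritic cells, went the other way at 0.0428, 0.0448, 0.0349 and 0.223 against 0.735, 0.309 and 0.274 CPM (log2 fold change -2.79 ± 0.87 (SE), edgeR adjusted p = 0.0348), a call lost in 7 of the 13 fits that left out 1 library.

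Interferon-gamma target genes were higher in every depleted liver than in any hepatectomised one. All 16 of 16 guanylate-binding proteins and immunity-related GTPases were higher, with a median log2 fold change of 4.52, and their summed level was 9746, 6469.7, 5454 and 5116 CPM in depleted against 501, 542 and 729 in hepatectomised and 532 to 975 in control livers. These proteins attack the vacuoles of intracellular pathogens. Gbp4 was at 246, 146, 133 and 196 against 3.59, 1.18 and 4.36 CPM and 2.22 to 14.1 in controls (log2 fold change 5.47 ± 0.50 (SE), edgeR adjusted p = 5.52e-05), and Iigp1 at 4431, 3339, 2230.0 and 1916 against 296, 332 and 487 CPM (log2 fold change 2.81 ± 0.27 (SE), edgeR adjusted p = 6.29e-05). Every fit that left out 1 library called all 16 genes. Near-identical copies such as Tgtp1 and Tgtp2 can share reads, and their values (5.70 ± 0.84 and 6.08 ± 0.94) are uncertain in that respect. The transcription factor Irf1, which interferon-gamma induces, was at 174, 131, 201 and 207 against 31.2, 36.3 and 39.4 CPM and 41.0 to 49.1 in controls (log2 fold change 2.30 ± 0.17 (SE), edgeR adjusted p = 1.68e-05). Antiviral genes shared by all interferons were higher for 25 of 31 at a smaller median of 2.24, as for Isg15 (1.71 ± 0.36) and Ifit1 (2.44 ± 0.42). Type I interferon acts mainly through the interferon-stimulated response element (ISRE), which interferon regulatory factors bind.

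The ISRE letters, GAAANN followed by GAAA, searched on both strands in the 250 bases before to 50 after each start site (RefSeq, GRCm38.p6, 10826 of 13831 tested genes matched), were present in 3.38% of all tested genes' promoters. They were in 7.86% of promoters of genes higher and 2.14% of those lower in depleted livers, in all 10 matched GTPase promoters and in 13 of 23 antiviral ones. The letters TTCNNNGAA of the gamma-activated sequence (GAS), an element of interferon-gamma target promoters, were in 6 of 10 GTPase and 6 of 23 antiviral promoters and in 7.11% of all. For MHC class II none of 7 matched promoters held the ISRE letters and 6 held CCAAT, the core of the Y box of such promoters, which 38.7% of all promoters hold. The 250 bases before the start are shown for the GTPases with the largest changes that hold a match there, Gbp2b and Tgtp2, and for H2-Eb1, the class II gene with the largest change. Capitals mark the ISRE letters in Gbp2b and Tgtp2 and CCAAT, on either strand, in H2-Eb1.
Gbp2b (chr3:142594597-142594846, plus strand): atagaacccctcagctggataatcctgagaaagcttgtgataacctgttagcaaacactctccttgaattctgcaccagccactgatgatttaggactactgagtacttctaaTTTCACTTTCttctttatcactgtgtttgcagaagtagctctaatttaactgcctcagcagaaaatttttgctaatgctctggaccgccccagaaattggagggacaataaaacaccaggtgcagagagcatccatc
Tgtp2 (chr11:49064213-49064462, minus strand): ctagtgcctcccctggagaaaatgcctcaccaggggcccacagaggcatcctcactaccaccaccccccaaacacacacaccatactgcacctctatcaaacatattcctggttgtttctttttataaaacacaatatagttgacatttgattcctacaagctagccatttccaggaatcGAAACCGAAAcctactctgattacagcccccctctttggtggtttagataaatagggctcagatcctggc
H2-Eb1 (chr17:34305617-34305866, plus strand): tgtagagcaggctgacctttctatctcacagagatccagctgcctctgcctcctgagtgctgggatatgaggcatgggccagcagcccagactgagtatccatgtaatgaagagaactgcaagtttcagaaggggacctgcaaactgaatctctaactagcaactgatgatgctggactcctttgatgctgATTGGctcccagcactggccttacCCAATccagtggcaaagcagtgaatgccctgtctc
The ISRE match begins 137 bases before the start in Gbp2b and 70 in Tgtp2, and the matches in H2-Eb1 begin 59 and 35 bases before it. A match of letters is a description and not a measured binding site.

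Antigen presentation by MHC class II had the largest median of the 47 lists examined. All 10 of 10 MHC class II genes, which present peptides to CD4 T cells, were higher with a median of 6.09, and 6 of them were among the 12 largest rises. H2-Aa (chr17:34282744-34287827) was at 499, 399.8, 1060.5 and 1173 CPM in depleted and 5.32, 4.66 and 15.9 in hepatectomised livers, with controls at 12.3 to 37.1 (log2 fold change 6.47 ± 0.64 (SE), edgeR adjusted p = 7.34e-05). Cd74, the invariant chain, was at 1504, 1096, 3126 and 3037 against 22.5, 13.5 and 44.6 CPM and 25.4 to 121 in controls (log2 fold change 6.30 ± 0.69 (SE), edgeR adjusted p = 0.000124), and Ciita, the master activator of the class, at 46.4, 28.0, 36.0 and 33.2 against 0.735, 0.140 and 0.299 CPM. The beta chain H2-Ab1 (6.21 ± 0.62) and the peptide exchange chaperone H2-DMb1 (5.96 ± 0.59) were equally far apart. Depleted livers 3 and 4 were the highest for H2-Aa and Cd74 and depleted liver 1 for Ciita. The hepatectomised livers lay at or below the control range for Ciita apart from liver 1. Class I genes were higher for 17 of 18 at a median of 1.74: the peptide transporter Tap1 was at 188, 124, 192 and 198 against 11.02, 17.2 and 11.8 CPM (log2 fold change 3.70 ± 0.27 (SE), edgeR adjusted p = 1.68e-05), the immunoproteasome subunit Psmb9 at 3.28 ± 0.28 and the heavy chain H2-K1 at 1.70 ± 0.27, both as log2 fold change ± SE. The light chain B2m, already abundant in controls at 1566 to 2142 CPM, was at 3271, 3220.3, 3684 and 3607 against 1531, 1535 and 2069.9 CPM. The H2-Q and H2-T genes are close copies of each other and their reads may be shared.

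**Figure D3:**
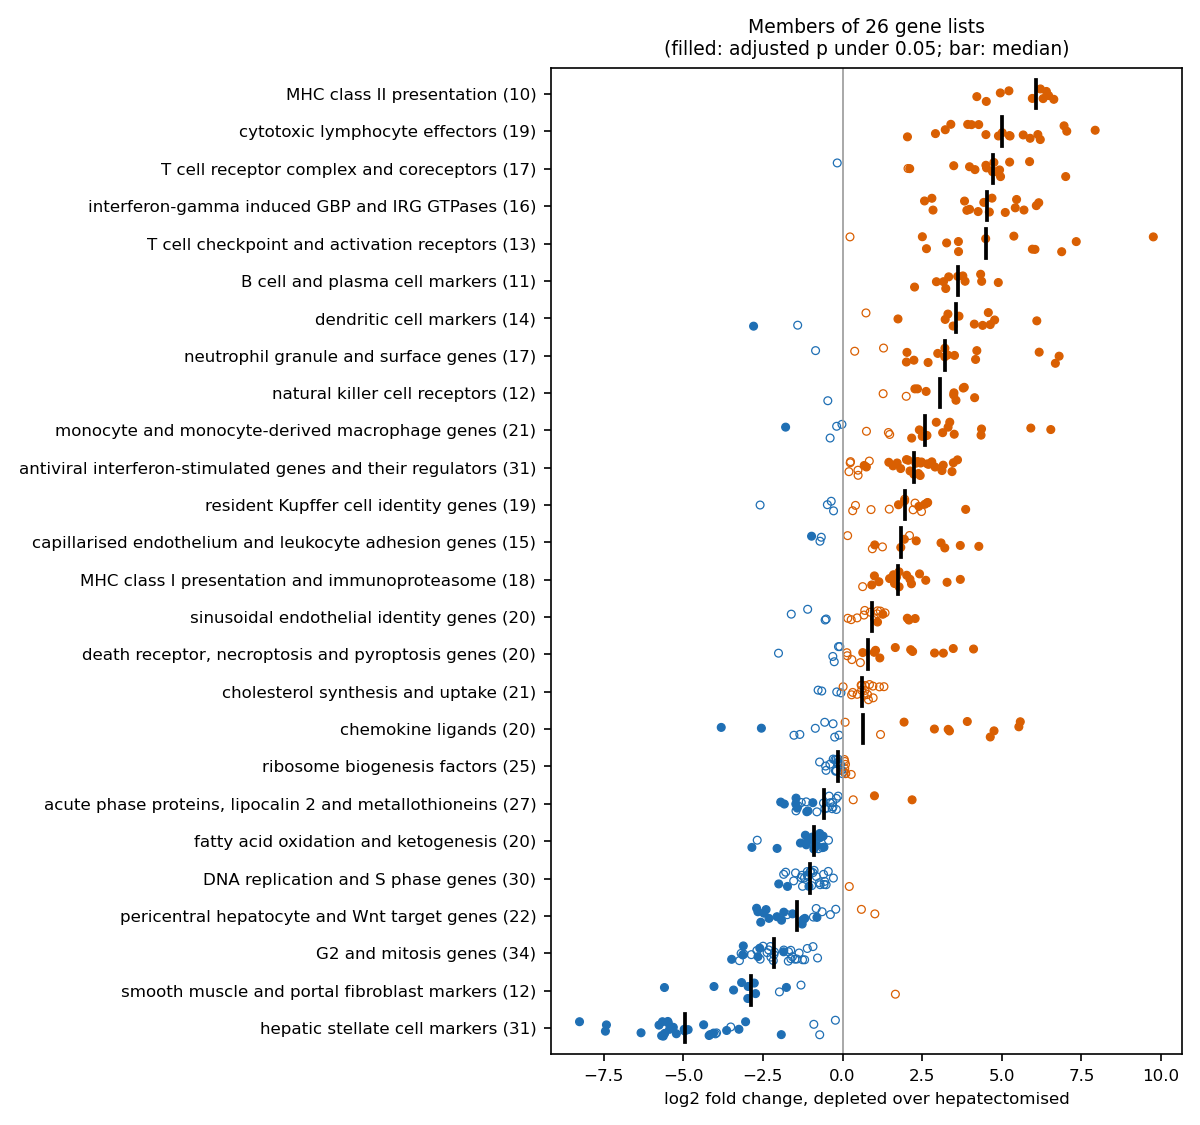
Log2 fold change of every tested member of 26 gene lists, depleted over hepatectomised livers. Each point is a gene, filled where edgeR called it at an adjusted p under 0.05, and the black bar is the median of the list. Lymphocyte, interferon and MHC lists lie to the right, stellate and smooth muscle lists to the left, and sterol synthesis and ribosome biogenesis have no called member.

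Chemokine genes were called in both directions. Of 20 tested, 9 were higher and 2 lower, the latter the share of all genes called lower (10.1%) and 0 to 2 when any 1 library was left out. The interferon-gamma induced T cell attractant Cxcl9 (chr5:92321347-92328079) was at 338, 173, 471 and 488 against 9.41, 2.16 and 8.93 CPM and 3.72 to 24.9 in controls (log2 fold change 5.54 ± 0.74 (SE), edgeR adjusted p = 0.000415), and its relatives Cxcl10 (3.36 ± 0.60) and Cxcl11 (3.32 ± 0.55) were higher as well. Ccl5, which T cells release, was at 23.7, 22.7, 54.9 and 52.2 against 0.382, 0.225 and 1.27 CPM. Cxcl1, a neutrophil attractant, was lower in depleted livers at 54.0, 20.4, 42.2 and 22.7 against 69.6, 259 and 314 CPM (log2 fold change -2.55 ± 0.57 (SE), edgeR adjusted p = 0.00753). Its controls were at 1.595 to 8.85 CPM, so that both groups lay above all controls and the hepatectomised livers further. The call for Cxcl1 was lost without hepatectomised liver 3 and that for the other lower member, Cxcl13 (-3.81 ± 1.25), in 10 of 13 such fits.

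Myeloid genes were higher in depleted livers as well. Ly6c2, of inflammatory monocytes, was at 27.0, 18.8, 38.6 and 30.7 against 0.529, 0.281 and 0.524 CPM and 0.150 to 0.661 in controls (log2 fold change 5.91 ± 0.49 (SE), edgeR adjusted p = 3.08e-05), and the chitinase-like Chil3 at 108, 141, 232 and 32.8 against 2.47, 1.54 and 1.147 CPM. Slamf8, a surface receptor of activated macrophages, was at 24.4, 14.8, 46.0 and 52.1 against 0.382, 0.421 and 0.349 CPM, and both Chil3 and Slamf8 were among the 12 largest rises by the rule for named genes. The chemokine receptor Ccr2 was at 15.3, 10.2, 23.9 and 32.9 against 1.146, 2.78 and 2.19 CPM. Monocyte and macrophage genes were higher for 14 of 21 and lower for 1, the fatty acid carrier Fabp5 (-1.79 ± 0.48), whose call was lost without depleted liver 3 or hepatectomised liver 3. Of the genes of lipid-associated macrophages, Trem2 was at -0.18 ± 1.00 and Spp1 at -0.39 ± 0.29, neither passing, though Spp1 was called without depleted liver 4 (-0.66). Neutrophil genes were higher for 14 of 17, with the granule genes Ngp at 62.9, 36.3, 61.6 and 33.9 against 0.647, 0.140 and 0.574 CPM and 0 to 0.164 in controls (log2 fold change 6.68 ± 0.56 (SE), edgeR adjusted p = 3.47e-05) and S100a8 at 78.1, 59.0, 75.8 and 31.3 against 8.93, 5.16 and 3.99 CPM. Hepatectomised livers exceeded all controls for S100a8 (0.0900 to 0.469 CPM), by less than the depleted ones did. The counts without depleted liver 3 were 9 for monocytes and 8 for neutrophils, and the latter was 9 without hepatectomised liver 3.

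Resident Kupffer cell genes leaned higher in depleted livers as a list, but single members differed. They summed to 2820, 2570, 3461 and 4497 CPM in depleted, 1633, 788 and 882 in hepatectomised and 709 to 1643 in control livers. The median was 1.95, 15 of 19 log2 fold changes were positive, and 36.8% were called higher against 13.3% of all genes. Complement C1qa, made by most tissue macrophages, was at 215, 193, 352 and 425 against 75.9, 11.6 and 47.9 CPM and 12.1 to 68.7 in controls (log2 fold change 2.65 ± 0.66 (SE), edgeR adjusted p = 0.0132), and 7 of 19 listed genes were higher. Clec4f, the most specific marker of the resident cells, was at 0.236, 2.17, 3.44 and 69.5 in depleted and 114, 11.6 and 85.7 in hepatectomised livers, with controls at 20.3 to 165 CPM (log2 fold change -2.59 ± 1.43 (SE), edgeR adjusted p = 0.216). Depleted livers 1 to 3 were below every control and every hepatectomised liver for Clec4f, and depleted liver 4 was within their range. Without that liver the difference was -5.17 (edgeR adjusted p = 0.00539). Vsig4 (-0.35 ± 0.72), Marco (1.95 ± 1.00) and Timd4 (2.22 ± 0.86) did not pass. Without hepatectomised liver 1, Marco was called at 3.96 (edgeR adjusted p = 0.00601) and Timd4 at 3.71 (edgeR adjusted p = 0.00806), and Timd4 also without control 6. Hepatectomised liver 2 had the lowest values of the 3 for these 3 genes (Marco at 212, 14.3 and 22.7 CPM). The count of higher genes was 3 without depleted liver 3, 12 without hepatectomised liver 1 and 4 without hepatectomised liver 3, and C1qa lost its call without depleted liver 3 or hepatectomised liver 3.

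Genes for inflammatory cell death were higher for 11 of 20 and lower for none (median 0.82). They included the death ligand Tnfsf10, or TRAIL, at 83.8, 43.5, 29.3 and 29.9 against 3.53, 1.35 and 1.99 CPM and 4.86 to 15.3 in controls (log2 fold change 4.11 ± 0.54 (SE), edgeR adjusted p = 0.000393), the inflammasome caspase Casp1 (3.17 ± 0.47), the necroptosis kinase Ripk3 (2.20 ± 0.47) and the sensor Aim2 (3.48 ± 0.58). The receptor Fas was at 27.5, 23.5, 29.7 and 31.9 against 30.7, 50.1 and 26.2 CPM, with both groups above the controls at 9.94 to 17.3 CPM, and did not pass (log2 fold change -0.30 ± 0.27 (SE), edgeR adjusted p = 0.447). Noxa (Pmaip1), a p53 target that promotes apoptosis, was at 5.27, 5.15, 9.85 and 10.6 against 0.470, 0.561 and 0.648 CPM (log2 fold change 3.66 ± 0.53 (SE), edgeR adjusted p = 0.000519). The other p53 targets called were lower: 3 of 17 (1 to 5 when any 1 library was left out), of which Ei24 (-0.66 ± 0.16) lost its call without hepatectomised liver 3, Eda2r (-2.49 ± 0.67) without depleted liver 3 or hepatectomised liver 2, and Phlda3 (-2.43 ± 0.75) without any of 5 livers. Cdkn1a, the p53-induced brake on the cell cycle, was at 10.9, 25.5, 55.5 and 17.2 against 56.1, 83.2 and 85.5 CPM, far over the controls (0.330 to 2.13) in both groups, and did not pass (log2 fold change -1.44 ± 0.56 (SE), edgeR adjusted p = 0.0846). It was called without depleted liver 3 (-2.46, edgeR adjusted p = 0.0164).

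Mitotic genes lay above most controls in both groups. G2 and mitosis genes summed to 214, 113, 169 and 311 CPM in depleted and 644, 1318 and 218 in hepatectomised livers, against 20.3 to 154 in controls. The ranges overlapped: hepatectomised livers 1 and 2 were far above the others and hepatectomised liver 3, the female, lay between depleted livers 1 and 4. All 34 tested genes had a negative log2 fold change (median -2.16) and 6 were called lower, or 17.6% against 10.1% of all genes. This count was 1 with library size alone, 2 in the 7 livers alone, 0 within females, 10 without the sex term, 11 in limma-voom and 12 in DESeq2. Cyclin B1 (Ccnb1), which drives entry into mitosis, was at 2.48, 1.501, 2.57 and 3.72 against 17.3, 31.5 and 5.11 CPM and did not pass (log2 fold change -3.10 ± 1.26 (SE), edgeR adjusted p = 0.0973). Ect2, a regulator of cytokinesis, was at 3.56, 2.35, 2.48 and 4.90 against 23.5, 40.9 and 8.40 CPM (log2 fold change -3.13 ± 0.82 (SE), edgeR adjusted p = 0.0165), a call lost without depleted liver 3. Top2a, the topoisomerase of dividing cells, was at 22.6, 13.8, 19.6 and 29.5 against 30.7, 99.9 and 11.8 CPM (log2 fold change -1.25 ± 0.99 (SE), edgeR adjusted p = 0.395), and Mki67, the Ki-67 antigen, at 56.0, 18.2, 22.9 and 51.1 against 39.4, 122 and 21.9 CPM (log2 fold change -1.11 ± 1.04 (SE), edgeR adjusted p = 0.478). The count of lower mitotic genes was 0 without depleted liver 3, 2 and 1 without hepatectomised liver 1 and 2, and 17 without hepatectomised liver 3. It was 1, 1, 3, 1 and 1 without controls 1, 2 and 6 and depleted livers 1 and 2. Within female livers the median was -0.18 and within males -2.61. Lymphocytes also divide, and in whole-liver RNA the cell type that carried these transcripts was not tested.

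DNA replication genes showed the same spread. They summed to 263, 230.1, 280.1 and 444 CPM in depleted and 389.8, 1368 and 319 in hepatectomised livers, with controls at 252 to 356, so that hepatectomised liver 2 stood above all others. Mcm5, of the replicative helicase, was at 6.53, 5.49, 8.40 and 12.8 against 10.8, 80.2 and 7.48 CPM and the ribonucleotide reductase subunit Rrm2 at 16.9, 15.4, 15.9 and 26.9 against 13.7, 143 and 16.9 CPM, and neither passed (-1.78 ± 0.79 and -1.11 ± 0.72), though Mcm5 was called without hepatectomised liver 3 (-2.62). The 3 called lower of 30 included Tyms, which makes thymidylate, at 5.35, 4.99, 5.01 and 7.64 against 12.1, 42.9 and 10.7 CPM (log2 fold change -1.73 ± 0.43 (SE), edgeR adjusted p = 0.0127), a call lost without depleted liver 3. This count is the share of all genes called lower (10.1%) and says nothing particular of replication genes. The count was 1 without depleted liver 3, 7 without depleted liver 4, and 5 and 10 without hepatectomised liver 1 and 3. The median of -1.03 was -0.06 without hepatectomised liver 2 and 0.16 within females. Among 19 G1 regulators 2 were lower and 2 higher, shares near those of all genes (10.1% and 13.3%), with 1 to 3 of each when any 1 library was left out and a median that turned positive with library size alone, within females or without hepatectomised liver 2. Cyclin D1 (Ccnd1), which drives hepatocytes out of quiescence, was at 18.8, 17.1, 14.1 and 58.1 against 73.2, 84.8 and 282 CPM (log2 fold change -2.90 ± 0.63 (SE), edgeR adjusted p = 0.00642). Controls spanned 6.51 to 151 CPM of Ccnd1. Its groups did not overlap, and the call was lost in the fit without a sex term and within males. The inhibitor Cdkn2a went the other way at 0.985, 2.15, 3.75 and 1.603 against 0.0294, 0.0281 and 0.199 CPM (log2 fold change 4.56 ± 0.87 (SE), edgeR adjusted p = 0.00269). Growth-related Myc (0.91 ± 0.54) and all 25 ribosome biogenesis factors (median -0.14, or 0.19 with library size alone, the direction thus turning with the scaling) did not pass.

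Promoters of mitotic genes carry the cell cycle homology region (CHR), TTTGAA, through which the DREAM complex represses them in resting cells. Searched on both strands, these letters were in 20 of 28 matched mitotic promoters, in 3 of 25 replication promoters and in 12.4% of all 10826. They were in 12.92% of promoters of genes lower and 13.53% of those higher in depleted livers. Among genes at least 8-fold lower and higher the shares were 12.94% and 19.55%. The E2F letters TTTCGCGC or TTTGGCGC, of the factors that switch on S phase genes, were in 7 of 25 replication, 1 of 28 mitotic and 1.51% of all promoters. The 250 bases before the start are shown for the called genes with the largest changes that hold a match there, Ect2 and Cdk1, with the CHR letters in capitals.
Ect2 (chr3:27153879-27154128, minus strand): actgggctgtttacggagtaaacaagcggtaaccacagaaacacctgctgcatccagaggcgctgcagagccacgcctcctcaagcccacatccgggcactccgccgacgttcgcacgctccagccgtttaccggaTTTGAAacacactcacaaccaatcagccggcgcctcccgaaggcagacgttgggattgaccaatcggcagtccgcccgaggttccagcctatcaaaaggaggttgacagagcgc
Cdk1 (chr10:69352913-69353162, minus strand): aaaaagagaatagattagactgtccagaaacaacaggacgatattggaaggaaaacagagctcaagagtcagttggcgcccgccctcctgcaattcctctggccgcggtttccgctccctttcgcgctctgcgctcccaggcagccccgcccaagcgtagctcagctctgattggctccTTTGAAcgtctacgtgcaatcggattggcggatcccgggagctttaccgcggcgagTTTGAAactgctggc
The match begins 114 bases before the start in Ect2 and 71 and 15 bases before it in Cdk1. Cdk1, the mitotic kinase, was at 5.33, 3.14, 5.24 and 11.9 CPM in depleted and 41.1, 75.5 and 10.6 in hepatectomised livers (log2 fold change -2.65 ± 0.88 (SE), edgeR adjusted p = 0.0479), with overlapping ranges and a call lost in 8 of 13 fits that left out 1 library.

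**Figure D4:**
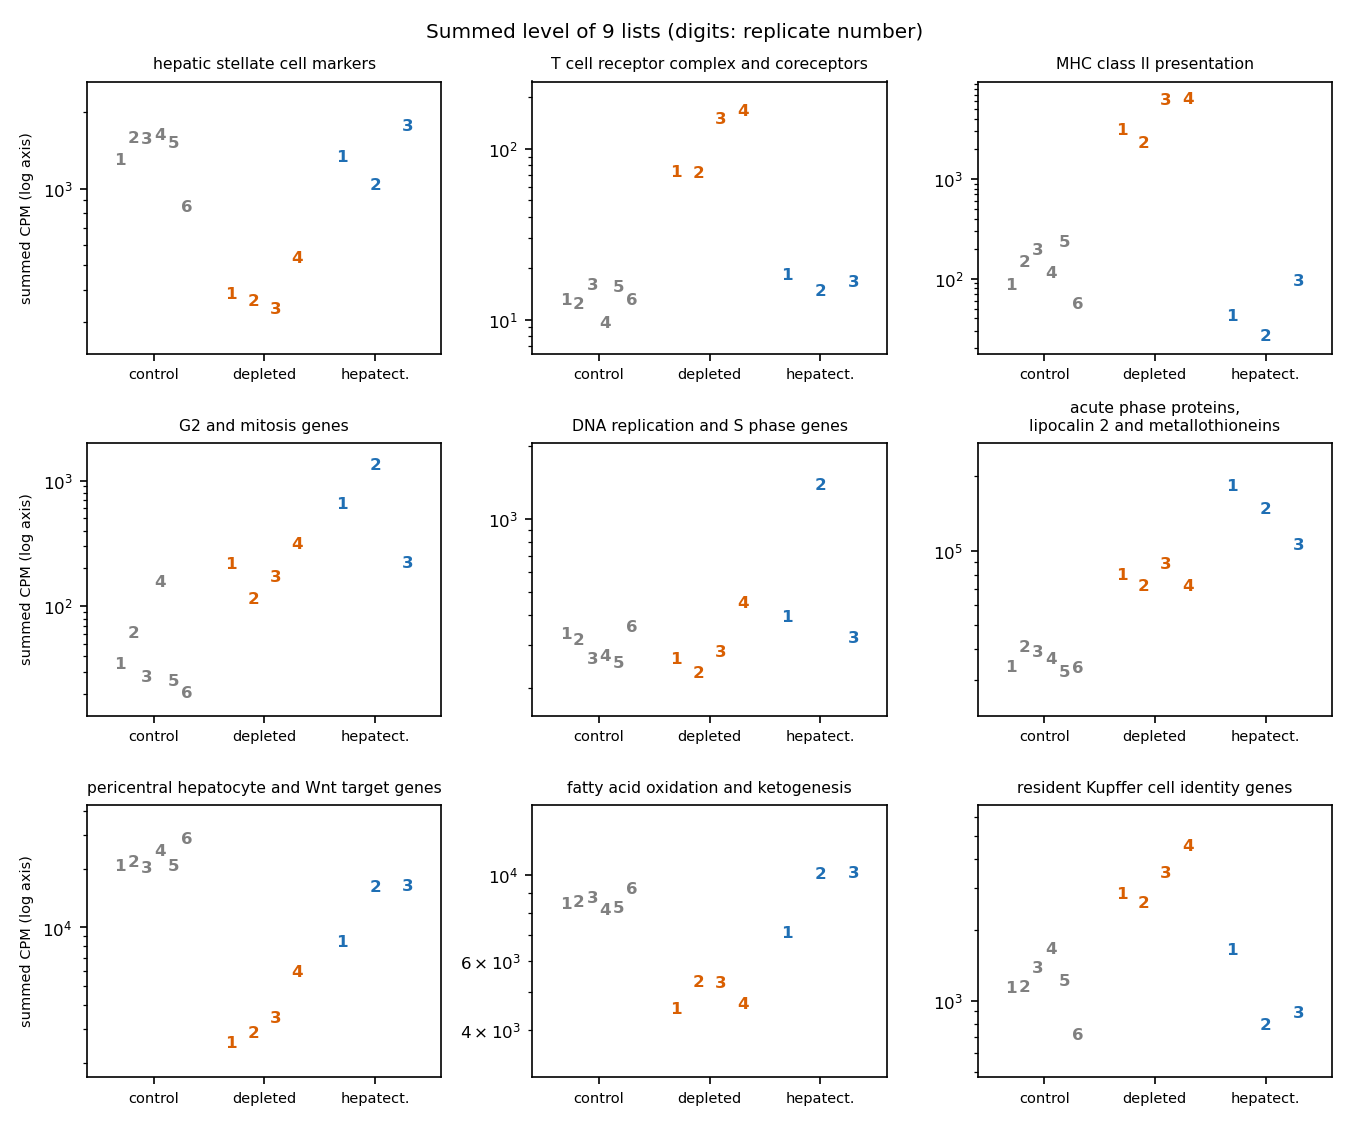
Summed CPM of 9 gene lists in each of the 13 libraries on log axes, with control (grey), depleted (orange) and hepatectomised (blue) livers labelled by replicate number. Mitosis sums are highest in hepatectomised livers 1 and 2 and replication sums in hepatectomised liver 2, and both overlap between depleted and hepatectomised livers. The stellate, T cell, MHC class II, acute phase, pericentral, fatty acid oxidation and Kupffer sums do not.

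Acute phase genes, which hepatocytes induce under interleukin-6, summed to 79168, 71541, 87730.1 and 71748 CPM in depleted and 181295, 146441 and 104792 in hepatectomised livers, all above the controls at 32211 to 40360.4. The fibrinogens set the groups apart. The chains Fga, Fgb and Fgg had log2 fold changes of -1.46 ± 0.15, -1.42 ± 0.16 and -1.47 ± 0.17. Fgb (chr3:83040141-83049863) was at 5279, 4642, 5534 and 6415 CPM in depleted and 15971, 16092 and 13615 in hepatectomised livers, against 4179 to 5345 in controls (log2 fold change -1.42 ± 0.16 (SE), edgeR adjusted p = 0.000145). The depleted livers overlapped the controls for Fgb and the hepatectomised livers were all above them. Serpina3n was at 1722, 1751, 2094 and 738 against 4181, 4862 and 2691 CPM (log2 fold change -1.08 ± 0.26 (SE), edgeR adjusted p = 0.0106), above controls in both groups (397 to 627 CPM). Of 27 genes listed 8 were lower and 2 higher, the higher ones being the orosomucoid Orm3 (2.18 ± 0.68) and ceruloplasmin (Cp, 1.003 ± 0.26). Saa1, the major acute phase protein, was at 772, 262, 2553 and 2421 against 13432, 6847 and 1665 CPM with controls at 10.8 to 310.1, and did not pass (log2 fold change -0.80 ± 0.77 (SE), edgeR adjusted p = 0.490). Lipocalin 2 (Lcn2) was at 642, 682, 1591 and 1079 against 2507, 2227 and 827 CPM, also far over controls (3.001 to 16.9) and without a call (log2 fold change -0.55 ± 0.55 (SE), edgeR adjusted p = 0.505). Metallothionein Mt2 likewise did not pass (-1.39 ± 1.08). Socs3, the feedback inhibitor of interleukin-6 signalling, was at 26.02, 12.7, 36.0 and 31.6 against 36.4, 199 and 121 CPM (log2 fold change -1.94 ± 0.49 (SE), edgeR adjusted p = 0.0143), a call lost without depleted liver 3 or hepatectomised liver 2 or 3. Lower calls fell to 5 without depleted liver 3, and those of Orm3 and Cp were lost without depleted liver 3 or hepatectomised liver 2, with hepatectomised liver 1 besides for Orm3 and 3 for Cp.

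Pericentral hepatocyte genes, the zone kept by Wnt signals from the central vein, were lower in depleted livers. Cyp2e1 (chr7:140763739-140774975), its best-known cytochrome P450, was at 831, 978, 1317 and 1339 CPM in depleted and 4233, 7604 and 9516 in hepatectomised livers, with controls at 9303 to 13212 (log2 fold change -2.66 ± 0.27 (SE), edgeR adjusted p = 7.34e-05). The Wnt target and receptor Lgr5 was at 1.09, 0.649, 0.873 and 1.65 against 5.82, 5.22 and 4.49 CPM and 5.02 to 8.81 in controls (log2 fold change -2.31 ± 0.34 (SE), edgeR adjusted p = 0.000635), and the Wnt inhibitor Notum at 9.36, 12.03, 5.24 and 12.03 against 22.4, 32.9 and 50.996 CPM and 35.6 to 44.8 in controls (log2 fold change -2.06 ± 0.25 (SE), edgeR adjusted p = 0.000211). All depleted livers were below all controls for these 3 genes. Hepatectomised livers 1 and 2 were also below all controls for Cyp2e1, with liver 3 inside their range. For Lgr5 hepatectomised liver 3 was below all controls and livers 1 and 2 were inside the range. For Notum livers 1 and 2 were below and liver 3 above all controls. The list as a whole summed to 2535, 2847, 3379 and 5858 CPM in depleted, 8385, 16076 and 16182 in hepatectomised and 20191 to 28447 in control livers, so that both groups were below all controls and the depleted livers further. In all, 14 of 22 were lower and none higher (median -1.42), among them the hepatokine Lect2 (-2.70 ± 0.32), the vitamin C enzyme Gulo (-2.47 ± 0.39), regucalcin (Rgn, -2.57 ± 0.27), Oat (-2.40 ± 0.50) and Axin2 (-1.24 ± 0.23). The count was 12 to 15 when any 1 library was left out, and the median was -1.60 within females and -1.56 within males. Glutamine synthetase (Glul) was the least firm, at 263, 235, 449 and 741 against 579, 1289 and 983 CPM (log2 fold change -1.18 ± 0.40 (SE), edgeR adjusted p = 0.0485), with a call lost in 11 of 13 such fits. Periportal genes had few calls: 1 of 17 was higher, the protease Ctsc, which leukocytes also express and whose call was lost without depleted liver 3 or hepatectomised liver 2 or 3, and 1 lower, Apoc2 (-1.71 ± 0.29), with a median of 0.04 that was -0.27 within females and -0.07 in the 7 livers alone and also turned negative in 6 of the fits that left out 1 library.

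Fatty acid oxidation was the most uniformly lower metabolic list: 16 of 20 genes were lower and none higher, with a median of -0.89. Cpt1a (chr19:3323301-3385732), which admits fatty acids to mitochondria, was at 195, 215, 295 and 212 against 311, 675 and 558 CPM (log2 fold change -1.14 ± 0.23 (SE), edgeR adjusted p = 0.00392), with controls at 408 to 478, and the trifunctional enzyme subunit Hadha was at -0.80 ± 0.16. Bdh1 of ketone metabolism was at 55.0, 29.9, 64.9 and 131 against 187, 328 and 328 CPM (log2 fold change -2.05 ± 0.40 (SE), edgeR adjusted p = 0.00332). Depleted livers were below all controls for Cpt1a and Bdh1, and the hepatectomised range overlapped that of the controls for both. Left-out libraries gave 12 to 17 lower genes, and scaling by library size alone 9. The receptor Ppara, which drives the set, did not pass (-0.76 ± 0.33). Of 15 fatty acid synthesis genes 3 were lower and none higher, or 1 higher without control 4, depleted liver 4 or hepatectomised liver 1, with a median of 0.42. Fads2, a desaturase of polyunsaturated fatty acids, was at 152, 152, 69.9 and 107 against 316, 449 and 414 CPM and 249 to 608 in controls (log2 fold change -1.97 ± 0.26 (SE), edgeR adjusted p = 0.000367), and Fasn, the fatty acid synthase, did not pass (0.98 ± 0.49). None of 21 cholesterol genes passed (median 0.60, or -0.04 without hepatectomised liver 3).

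Other hepatocyte functions had smaller shares of called genes. Of 30 cytochromes P450 8 were lower and 1 higher (0 to 4 when any 1 library was left out), at a median of -0.27 that turned to 0.05 with library size alone, and the lower count was 3 without depleted liver 3, 3 without hepatectomised liver 3 and 5 without depleted liver 1 or hepatectomised liver 2. Cyp2c55 was at 0.300, 0.493, 0.472 and 2.92 against 10.8, 15.0 and 5.69 CPM and 7.16 to 15.5 in controls (log2 fold change -3.23 ± 0.76 (SE), edgeR adjusted p = 0.00952). Genes of bile acid synthesis and export included Abcb4, the canalicular phospholipid carrier, at 100.3, 87.1, 85.5 and 83.4 against 170.2, 243 and 305 CPM and 205 to 301 in controls (log2 fold change -1.47 ± 0.19 (SE), edgeR adjusted p = 0.000280), and Abcc4, an export pump of the blood side, which was higher (1.88 ± 0.44) with a call lost without hepatectomised liver 3. Cyp7a1, the rate-limiting enzyme, was at 5.53, 12.6, 12.3 and 27.6 against 50.96, 49.9 and 30.8 CPM, below the controls (117 to 343) in both groups, and its call was lost in 7 of 13 fits that left out 1 library (log2 fold change -1.68 ± 0.54 (SE), edgeR adjusted p = 0.0430). Of 10 urea and nitrogen genes 4 were lower, led by Glud1 (-0.94 ± 0.15), a count of 1 with library size alone, 1 in the 7 livers alone, 1 within females and 0 within males. The urea cycle enzymes Cps1 (-0.19 ± 0.31) and Otc (-0.26 ± 0.28) did not pass. Albumin was at 101181, 143508, 58516 and 51044 against 126022, 88350.1 and 140031 CPM and did not pass (log2 fold change -0.72 ± 0.34 (SE), edgeR adjusted p = 0.144), nor did the regulator Hnf4a (-0.52 ± 0.23). Counts of lower genes were small among unfolded protein response genes (2 of 17), phase II enzymes (2 of 26), coagulation factors (2 of 15), hepatocyte transcription factors (4 of 16), the growth hormone axis (2 of 10) and defining hepatocyte markers (2 of 9), with none higher. For the first 3 of these lists the share is near the 10.1% of all genes called lower and says nothing particular of them. Each of these counts was 0 in at least 1 fit that left out 1 library, and with library size alone the medians of phase II, coagulation and growth hormone genes turned positive. Immediate early genes had 1 higher member, Dusp1, and 1 lower, Junb, of 16, with calls of 0 to 3 and 0 to 2 in such fits and a median that also turned positive with library size alone.

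Endothelial genes leaned higher in depleted livers, and the counts moved with single libraries. Sinusoidal identity genes summed to 1197, 1194, 1130.2 and 684 CPM in depleted, 599, 216 and 463 in hepatectomised and 221 to 1020.5 in control livers. The 221 was control 6, and the other controls, at 682 to 1020.5, were above every hepatectomised liver. Of 20 tested, 5 were higher and none lower, including the mannose receptor Mrc1 (2.28 ± 0.58). For 2 of them the control mean lay nearer the hepatectomised and for 3 nearer the depleted mean. The count was 3 without depleted liver 1 or 2 or hepatectomised liver 2, and none was called without depleted liver 3 or without hepatectomised liver 3. Stab2 (1.09 ± 0.44) and Kdr (1.10 ± 0.58) did not pass, though Stab2 was called without control 6 or depleted liver 4. Adhesion genes through which activated endothelium catches leukocytes were firmer: Vcam1 was at 199.96, 263, 305 and 196 against 29.4, 13.2 and 36.9 CPM and 2.52 to 17.1 in controls (log2 fold change 3.09 ± 0.53 (SE), edgeR adjusted p = 0.00177) and P-selectin (Selp) at 6.73, 5.31, 8.38 and 3.07 against 0.882, 0.646 and 0.598 CPM and 0.912 to 1.83 in controls (log2 fold change 3.21 ± 0.36 (SE), edgeR adjusted p = 0.000128). In that list 8 of 15 were higher, 5 without depleted liver 3 and 4 without hepatectomised liver 3. Plvap, of fenestral diaphragms, was lower at 33.5, 27.2, 33.3 and 28.3 against 59.6, 58.9 and 54.6 CPM (log2 fold change -0.97 ± 0.27 (SE), edgeR adjusted p = 0.0224), a call lost without hepatectomised liver 2. The central vein Wnt ligands Wnt2 (-1.09 ± 0.61) and Wnt9b (-1.61 ± 0.69) did not pass, and Wnt9b was called without control 6.

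**Figure D5:**
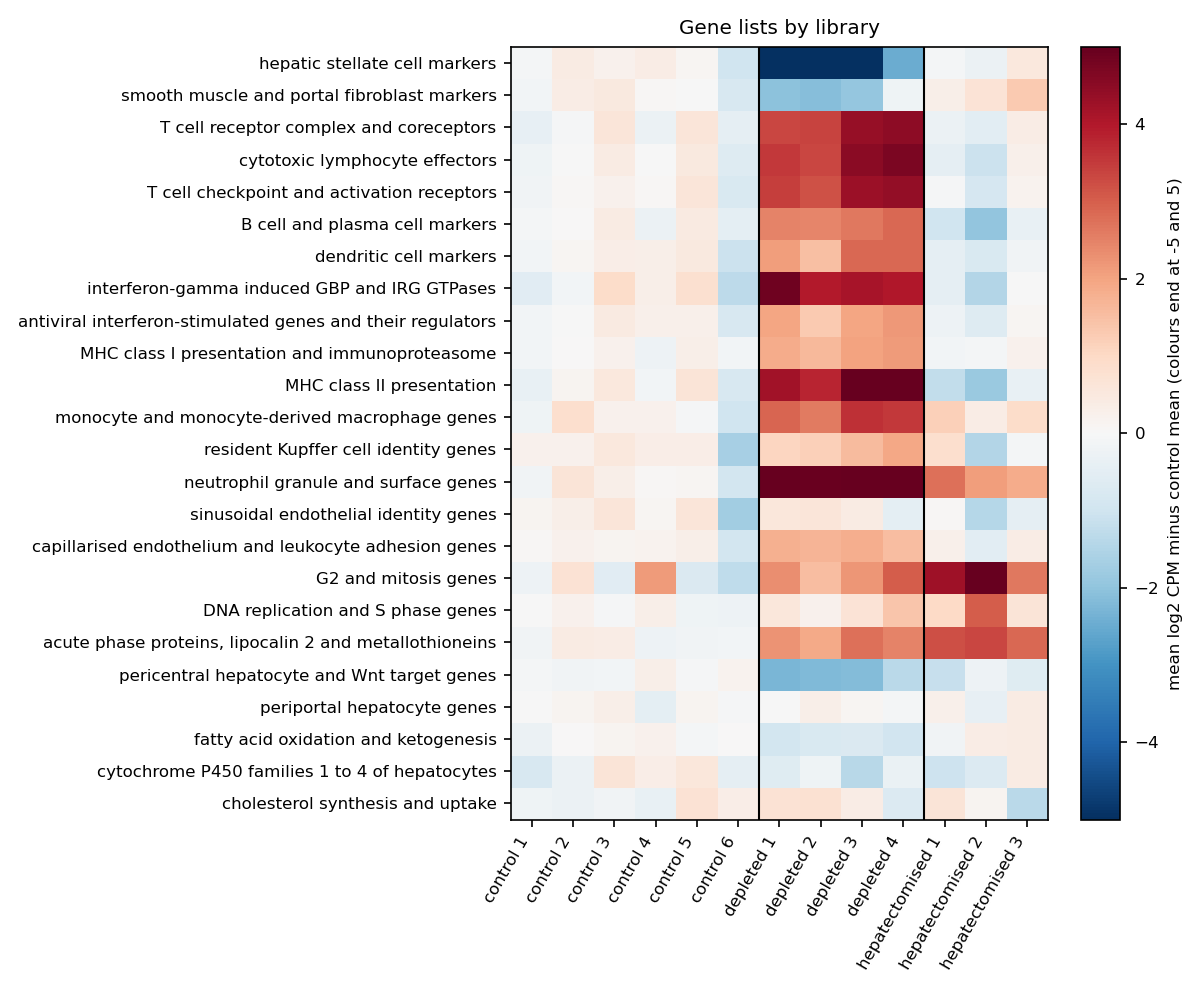
Mean log2 CPM of 24 gene lists in each library minus the mean of the 6 control livers, with libraries in columns by group and replicate. Red is above and blue below control; depleted livers are red for lymphocyte, interferon and MHC lists and blue for stellate, pericentral and fatty acid oxidation lists, and both groups are red for mitosis and acute phase lists.

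Ductal and fetal genes were lower for 4 of 14. The cholangiocyte keratin Krt19 was at 0.557, 1.05, 0.786 and 1.31 against 4.06, 1.99 and 6.53 CPM (log2 fold change -2.29 ± 0.39 (SE), edgeR adjusted p = 0.00135), and Krt7 at 0.407, 0.694, 0.803 and 0.356 against 2.67, 2.05 and 4.59 CPM, with all hepatectomised livers above all controls for both. The fetal growth factor Igf2 was at 0.0214, 0.0672, 0.0524 and 0.0891 against 0.852, 0.674 and 0.524 CPM (log2 fold change -3.56 ± 0.53 (SE), edgeR adjusted p = 0.000626), with controls at 0.346 to 0.772. Cd24a, carried by progenitors and by leukocytes, was higher (2.77 ± 0.43), and Epcam, Sox9 and Afp did not pass (-0.40 ± 0.30, -0.16 ± 0.50 and -1.001 ± 0.63). Erythroid genes were higher for 2 of 16, a share near the 13.3% of all genes, with 1 without hepatectomised liver 3, 6 without the sex term and 7 in DESeq2, among them Slc4a1, an anion exchanger of the red cell membrane. It was at 81.2, 4.52, 1.62 and 27.0 against 0.0588, 0.0842 and 0.399 CPM, so that depleted livers 1 and 4 stood above 2 and 3. Genes known to differ between male and female livers were called for 3 members in all: Elovl3 (-4.01 ± 0.94), Cyp3a44 (-4.02 ± 0.88) and Cyp4a12a (3.63 ± 1.19, lost in 8 of 13 fits that left out 1 library). Of 12 male-biased genes 1 was lower, or 5 without depleted liver 4, and of 14 female-biased genes 1 was lower, or 2 without depleted liver 3, depleted liver 4 or hepatectomised liver 3. Elovl3 and Cyp3a44 lost their calls within females and within males, and Cyp3a44 also without the sex term. The sex term itself called 142 genes (1.03%), 34 of them also among the 3236. Near-identical genes of the Cyp2c, Cyp3a and Cyp4a families can share reads.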

How the data were processed

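Whole-liver polyA RNA was measured by RNA sequencing in 13 libraries. The authors deposited 1 table of raw read counts per gene (22048 genes, mm10 coordinates). The submitters' processing notes name STAR 2.7.1a, SAMtools 1.15.1 and featureCounts 1.6.4. The settings for strand and multiply mapped reads are not given in the sources used here, so overlapping, antisense and near-identical genes may share reads. Symbols were matched for 21741 gene IDs and 307 had none; 4819 genes had 0 counts in every library. All 13 columns matched a labelled sample.

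edgeR 4.0.16 (R 4.3.3) filtered the counts by expression (13831 tested, 8217 removed), scaled them by TMM and fitted all 13 libraries with terms for group and sex, so that the controls share the estimate of spread (biological coefficient of variation 31.4%). The contrast, depleted minus hepatectomised, was tested two-sided by quasi-likelihood with Benjamini-Hochberg adjustment over all genes tested at 0.05. Log2 CPM used a prior count of 2. Values given as SE are not standard errors estimated for the coefficient. They are the absolute log2 fold change divided by the square root of the quasi-likelihood F statistic. Where a group holds few or no counts they can understate how uncertain the size of a difference is. Total counts of 35360991 to 51008737 limit single libraries to a floor of 3 counts, and this floor covers counting error only. No pair of livers within a group agreed within sampling noise (lowest median chi-square per gene 4.60), and all were kept as separate samples. The test was checked on data of known answer.

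The comparison and its 47 gene lists were chosen with earlier results of these data known, so lists are described by counts and medians beside the share of all genes called, with no set test. Named genes are the 12 largest rises and 12 largest falls among called genes with a mean log2 CPM of at least 1, ranges that do not overlap and a symbol that is not a predicted gene. For each list they are also the 4 called members with the largest changes and up to 2 going the other way, and 20 genes were always examined. The text names 178 genes, 64 of them chosen outside this rule after their values were seen, and 72 genes that the rule gives are covered by the counts alone, some of which are not reported here. Alternatives were DESeq2 1.42.0, limma-voom (limma 3.58.1), other scalings and filters, each sex alone, no sex term, the 7 livers alone, a replicate block and leaving out each library. Promoter sequences are RefSeq's (GRCm38.p6). Figures were drawn with matplotlib 3.10.9.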

Additional observations from a re-analysis of the deposited data

Results flagged for a closer look

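For each gene and gene list described, the CPM of the 6 control livers and of the 4 depleted livers were searched for a highest or lowest library whose gap to its nearest neighbour was unusually wide. The gap, as a share of the range of the group, was compared with Dixon's 95% critical value. Of 450 such groups, 57 passed it, where chance passes about 1 in 20, or 22.5. The 3 hepatectomised livers are too few for this comparison, and genes that belong to a common list are not independent. Shares of the range are given in parentheses. Depleted liver 4 stood apart from the other 3 depleted livers most often. It was the highest for these stellate, smooth muscle and matrix genes: Acta2 (0.963), Bmp5 (1.00), Col14a1 (0.924), Col1a1 (0.996), Col3a1 (0.997), Colec10 (0.952), Colec11 (0.985), Dcn (0.940), Gdf2 (0.905), Igfbp3 (0.965), Lmod1 (1.00), Loxl1 (0.918), Lrat (0.976), Lum (0.993), Pdgfra (0.974), Postn (0.965), Timp1 (0.923) and Vipr1 (0.873). It was also the highest for Ccnd1 (0.892), Cd7 (0.840), Clec4f (0.954), Cyp2c55 (0.926), Gulo (0.855), Lect2 (0.891), Rrm2 (0.867), Siglech (0.948), Spp1 (0.903) and Tyms (0.864), of other lists. The summed CPM of smooth muscle and portal fibroblast markers was highest there (0.985). The summed CPM of sinusoidal endothelial identity genes was lowest there (0.870). Depleted liver 2 was the lowest of its group for Gbp2b (0.8293) and Tap1 (0.862). Depleted liver 3, the male, was the highest of its group for Cyp4a12a (0.950) and Sox9 (0.859).

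Among the control livers such values were spread over several libraries. Control liver 1 had the highest summed CPM of hepatocyte identity transcription factors (0.630). Control liver 2 was the highest for Acta2 (0.828), Col1a1 (0.710), Myc (0.774), Saa1 (0.731), Selp (0.708), Trem2 (0.626) and Ubd (0.629). Control liver 3 was the highest for Mt2 (0.928). Control liver 4 was the highest for Acot1 (0.671), Afp (0.748), Ccnb1 (0.836), Ect2 (0.787), Mki67 (0.637) and Oat (0.742). Control liver 4 had the highest summed CPM of G2 and mitosis genes (0.699). Control liver 5 was the highest for Ifng (0.664), Ntrk2 (0.697) and Pdcd1lg2 (1.00). Control liver 6 was the lowest for Lmod1 (0.637), Reln (0.635) and Vipr1 (0.637). Control liver 6 had the lowest summed CPM of capillarised endothelium and leukocyte adhesion genes (0.668). These controls served as reference levels beside the comparison and enter the common estimate of spread and the sex term of the fit.

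The interaction of the contrast with sex, which rests on 1 male depleted and 1 female hepatectomised liver, passed an adjusted p of 0.05 for 2 genes in edgeR and had an unadjusted p under 0.05 for 621. None of the 2 was called in the comparison itself.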

How the results depend on the processing

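Of 3236 genes called (1837 higher, 1399 lower, 2220 at least 2-fold), DESeq2 called 3937 and limma-voom 3405, and 99.3% and 96.0% of the edgeR calls were kept. The fit without a sex term called 3798, median-of-ratios scaling 3257, the fit with no low-count filter 3212 and that with at least 1 CPM in 3 libraries 2916. The counts that moved by over 1.5 times were those of smaller fits and of library size alone. The 7 livers without controls gave 2105 (707 lower), female livers 1263 (816 higher, 447 lower, 1203 at least 2-fold) and male livers 668 (427 higher, 241 lower, 667 at least 2-fold). Library size alone gave 3102 higher and 610 lower. Leaving out 1 library in turn gave 1709 to 3850 genes, 1051 to 2035 higher, 658 to 1876 lower and 1414 to 2406 at least 2-fold. The lowest of each came without depleted liver 3, and 51.8% of the calls were then kept. Replicate numbers recur across the groups but do not pair the livers: the deviations of same-numbered depleted and hepatectomised livers correlated at -0.00124, -0.132 and -0.351, no depleted liver correlated best with its own number, and sexes differ within numbers. A replicate block on them gave 3170 calls in edgeR, with 83.5% of the main calls kept, and 22 lower mitotic genes in place of 6.

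Besides the list medians that were given above as turning, directions turned for Cdkn2c, a cell cycle inhibitor (0.0909 within female livers, edgeR adjusted p = 0.923, against -1.57 ± 0.51 (SE) in the comparison), and for the medians of DNA replication genes within females (0.16), phase II enzymes with library size alone (0.11) and coagulation factors with library size alone (0.00218). Further list medians changed sign: immediate early genes within males (0.57) and without hepatectomised liver 2 (0.03) or 3 (0.24), lipogenesis genes within males (-0.40), ribosome biogenesis factors without hepatectomised liver 2 (0.01), and, of the lists of genes known to differ by sex, the female-biased one without a sex term (0.26) and the male-biased one without depleted liver 3 (0.40). Over the 250 genes examined and 24 settings, 5343 values kept direction and side of the threshold, 569 lost and 40 gained a call and 25 with no call in either fit changed sign. Library depth set a floor of 0.0588 to 0.0848 CPM per library, below which both the level of a gene and its difference are unresolved. Fits on fewer livers have fewer degrees of freedom, and the cause of the other changes was not tested.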

Other observations

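Genes outside the lists, chosen after their values were seen, separated the groups as widely. Cyp26a1, the retinoic acid hydroxylase that retinoic acid itself induces, was at 203, 282, 259 and 506 CPM in depleted and 9.55, 9.18 and 6.33 in hepatectomised livers, with controls at 3.70 to 88.8 (log2 fold change 5.06 ± 1.04 (SE), edgeR adjusted p = 0.00472). Every depleted liver was above every control, and the hepatectomised livers lay within the control range. The difference was 4.60 to 5.29 when any 1 library was left out and kept its call each time. Ubd, the ubiquitin-like FAT10 that interferon-gamma and tumour necrosis factor induce, was at 39.3, 17.5, 116 and 90.6 against 0.235, 0.814 and 0.623 CPM (log2 fold change 7.13 ± 0.96 (SE), edgeR adjusted p = 0.000441). Serpina3g, an inhibitor of cathepsins in T cells, was at 326, 133, 347 and 268 against 19.5, 10.4 and 10.6 CPM, and the nucleotide hydrolase Samhd1 at 277, 178, 285 and 263 against 20.04, 17.3 and 23.3 CPM (log2 fold change 3.58 ± 0.20 (SE), edgeR adjusted p = 3.54e-06). Ptprc, or CD45, carried by all leukocytes, was at 100.1, 75.0, 129.7 and 111 against 12.02, 3.76 and 10.6 CPM.

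Alpha-2-macroglobulin (A2m), a protease inhibitor, marked the hepatectomised livers. It was at 0.129, 0.112, 0.0349 and 0.490 CPM in depleted and 81.0, 62.5 and 2.29 in hepatectomised livers, with controls at 0.0600 to 0.268 (log2 fold change -7.05 ± 1.29 (SE), edgeR adjusted p = 0.00243), so that hepatectomised livers 1 and 2 stood far above liver 3 and all 3 above every control. A2m has close relatives in the same gene cluster, which can share its reads. Fat-handling genes lower in depleted livers included Acot1, a fatty acyl-CoA thioesterase, at 1.22, 0.918, 2.81 and 2.38 against 13.1, 33.8 and 25.4 CPM (log2 fold change -3.80 ± 0.67 (SE), edgeR adjusted p = 0.00196). The carnitine transferase Crot was at 182, 165, 219 and 243 against 663, 545 and 860.4 CPM, below all controls (427 to 1105) in depleted livers. The lipid droplet coat Plin5 was at 10.9, 24.1, 30.3 and 11.1 against 64.8, 55.5 and 129 CPM (log2 fold change -2.10 ± 0.43 (SE), edgeR adjusted p = 0.00468), a call lost without hepatectomised liver 3, and Angptl4, an inhibitor of lipoprotein lipase, at 35.2, 73.1, 107 and 56.0 against 284, 253 and 231 CPM. For both of these the hepatectomised livers were above all controls. Lactate dehydrogenase A (Ldha) was at 279, 286, 489 and 501 against 1420.1, 1879 and 1237 CPM with controls at 293 to 581 (log2 fold change -1.82 ± 0.27 (SE), edgeR adjusted p = 0.000696), again above all controls in the hepatectomised livers alone.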
